A study of Homo sapiens with 4 samples.

Results

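Intervals enriched for N6-methyladenosine (m6A), a methyl mark on adenosines inside messenger RNA, were examined in 10 genes of epidermal growth factor receptor signalling. The set held the receptor EGFR, its partner receptor ERBB2 and the hepatocyte growth factor receptor MET, the EGFR ligands EREG, HBEGF and TGFA, and the feedback inhibitors ERRFI1, SPRY2, SPRY4 and DUSP6. A gene's intervals were those that overlapped a fixed window around it on its own strand (hg19), with no use of their scores or of the condition. The windows held 9 of the 13691 intervals of the METTL3 siRNA + CSE list and 7 of the 11038 intervals of the CSE list. At least 1 interval was listed for 8 of the 10 genes, and none for ERBB2 or EREG. Without an hg19 annotation the share over all genes was not computed, so 8 of 10 is not read as high or low.

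The study used 16-HBE, an established line of human bronchial epithelial cells. The METTL3 siRNA + CSE cells received siRNA against METTL3, the enzyme that places m6A on messenger RNA, and were kept for 24 h in medium with cigarette smoke extract (CSE) at 5%. The CSE condition had the same exposure and is labelled wild type. Every sample was exposed to smoke extract, and no label gives the CSE cells a control siRNA, so a lower METTL3 level and the transfection cannot be told apart. In each condition RNA precipitated with an m6A antibody (IP) and unprecipitated RNA (input) were sequenced, and the authors deposited 1 list of enriched intervals per condition. The series describes 3 replicates per condition, but with 1 list each there was no replicate spread and no test between conditions. A difference below is a difference between these 2 lists. The lists hold no expression values or read counts, so neither transcript levels, nor the identity of the cells by their markers, nor the depth behind an interval was analysed here.

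EGFR is a receptor tyrosine kinase of epithelia that is activated by membrane-anchored ligands once these are shed from the cell surface, and it signals through RAS and the ERK kinases. In airway epithelium this pathway is known for its part in wound repair and mucin production. Its output is limited by inhibitors that it induces itself: ERRFI1 (also called MIG6) binds the kinase domain of EGFR, the Sprouty proteins act on signalling upstream of ERK, and DUSP6 removes phosphate from ERK. METTL3 marks adenosines within a loose consensus, and m6A is known to be frequent in long internal exons and around stop codons.

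The lists give no gene structure, and the annotation used here (GENCODE release 29, GRCh38) belongs to another build, so only lengths were set beside it. Of 13 distinct intervals in these genes, 4 had exactly the length of an exon in a basic protein-coding transcript of their gene. These were the 142 nt interval of EGFR, the 1214 nt interval of MET, the 584 nt interval of DUSP6 and the 4729 nt CSE interval of SPRY4. For MET, SPRY4 and DUSP6 1 exon of the gene had that length. In EGFR both exon 7 and exon 17 of EGFR-201 measure 142 nt. The EGFR interval began 135.7 kb from the 5′ edge of its window, and the 2 exons begin 135.0 and 154.0 kb from the 5′ end of the annotated gene, so exon 7 is the closer one. The same distances were 27.1 kb for the MET interval and 26.7 kb for its exon, 12.3 and 9.9 kb in SPRY4, and 3.1 and 2.1 kb in DUSP6. An equal length is a description and does not place the interval on the exon. TGFA, SPRY2 and SPRY4 count among the 13 with a different interval in each list. The share of such matches over the whole lists was not computed, so the 4 are not read as many or few.

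Coding sequence of these exons is shown because they equal listed intervals in length, and it was read from GENCODE transcripts, in the sense of the RNA with T for U. The positions beside it are GRCh38 and are not those of the hg19 intervals. Capitals mark the m6A consensus, any of 18 pentamers that start with A, G or T, go on with A or G and then AC, and end with A, C or T. The first is exon 7 of EGFR-201 (chr7:55154011-55154152, plus strand), whole, which encodes part of the extracellular region of the receptor. The second is the first 300 bases of MET coding sequence, from the start codon, in exon 2 of MET-202 (chr7:116699085-116699384, plus strand). It is cut after GGAC, and a pentamer that crosses a cut end is not marked. The third is the first 300 bases of exon 2 of DUSP6-201 (chr12:89350726-89351025, minus strand), which is the 3′ part of the 584 nt exon of DUSP6-204. The last is the final 300 bases of SPRY4-201 coding sequence, stop codon included, in exon 3 (chr5:142314209-142314508, minus strand).
EGFR exon 7: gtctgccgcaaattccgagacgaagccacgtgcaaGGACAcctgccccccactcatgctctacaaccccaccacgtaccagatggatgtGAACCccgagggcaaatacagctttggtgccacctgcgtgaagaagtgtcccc
MET exon 2: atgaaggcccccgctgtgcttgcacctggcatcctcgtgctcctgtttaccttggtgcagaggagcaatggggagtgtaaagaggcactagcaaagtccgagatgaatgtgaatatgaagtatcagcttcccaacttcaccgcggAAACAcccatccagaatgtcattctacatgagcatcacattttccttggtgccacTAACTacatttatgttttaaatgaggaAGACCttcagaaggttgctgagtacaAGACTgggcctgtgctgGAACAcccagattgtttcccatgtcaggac
DUSP6 exon 2: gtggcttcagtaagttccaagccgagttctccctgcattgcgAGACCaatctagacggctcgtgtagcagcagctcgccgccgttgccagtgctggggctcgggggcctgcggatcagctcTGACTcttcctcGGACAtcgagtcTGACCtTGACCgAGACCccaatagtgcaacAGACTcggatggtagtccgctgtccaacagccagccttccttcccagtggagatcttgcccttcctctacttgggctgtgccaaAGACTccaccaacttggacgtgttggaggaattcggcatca
SPRY4 exon 3: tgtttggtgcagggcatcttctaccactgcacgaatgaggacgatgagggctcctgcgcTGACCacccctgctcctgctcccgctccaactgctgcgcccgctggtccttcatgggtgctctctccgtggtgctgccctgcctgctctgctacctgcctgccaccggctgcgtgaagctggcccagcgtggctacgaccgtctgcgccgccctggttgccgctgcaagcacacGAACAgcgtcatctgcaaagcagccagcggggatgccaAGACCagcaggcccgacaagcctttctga

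These exons held consensus pentamers at about the number usual for their length. Exon 7 of EGFR held 2, exon 2 of MET 21, the 584 nt exon of DUSP6 10 and exon 3 of SPRY4 88. Regions of the same length at the 5′ side of annotated exons held a median of 3.0, 23.0, 11 and 89.0, in the same order, and 91.7% of the 142 nt regions held at least 1. Exon 17 of EGFR held 0. The form known to be methylated most often, GGACT, occurred 0 times in EGFR exon 7, 1 time in MET exon 2, 0 times in the DUSP6 exon and 4 times in SPRY4 exon 3. Among regions of those lengths, 14.4%, 67.7%, 46.5% and 96.4% held it. A match is not a methylated site, and only the sense strand was read.

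The receptors differed from one another in what was listed. EGFR, the receptor that gives the pathway its name, had 1 interval in the METTL3 siRNA + CSE list and none in the CSE list. It covered 142 nt on the plus strand of chromosome 7 (hg19, chr7:55221704-55221845) with a score of 137.2. The authors' score, whose scale is not stated, is used here only to place an interval within its list. This interval stood at the 30.7 percentile of the METTL3 siRNA + CSE list, where the whole list had a median of 280.1. The nearest CSE interval on that strand was 277073 nt away. With the list cut into 10 score classes of nearly equal size, 48.9% of the intervals in the class of this one had no overlap in the CSE list.

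MET, a receptor tyrosine kinase that also drives epithelial repair, had the same interval in both lists, chr7:116339125-116340338 (hg19, plus strand), with both borders identical to the base. Its length of 1214 nt is that of exon 2, which holds 1200 coding bases and the start codon and encodes the beginning of the extracellular part of the receptor. The score was 2891.6 in the METTL3 siRNA + CSE list, at its 90.8 percentile, and 494.5 in the CSE list, at its 69.9 percentile. It was the highest score among these genes in the METTL3 siRNA + CSE list and the third highest in the CSE list. Lists of different length and unstated scale give no measure of change, so neither the scores nor the percentiles are read as more or less m6A.

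ERBB2, the co-receptor without a known ligand of its own, had no interval on either strand of its window (hg19, chr17:37844000-37887000) in either list. The nearest listed interval on its strand lay 161.4 kb from the window in both lists. Interval names carry a running number that rises with position, and most numbers are unlisted. Between the listed intervals that flank the ERBB2 window, 6 numbers were unlisted in the METTL3 siRNA + CSE list, over 454.5 kb, and 16 in the CSE list, over 562.9 kb. If the numbers count calls, unlisted calls in ERBB2 are possible in both conditions. In the CSE list 25 numbers were likewise unlisted around the EGFR window, over 4294.9 kb. The METTL3 siRNA + CSE list had 17 there, over 4247.0 kb. Flanking intervals were taken from either strand, so unlisted numbers need not fall in the window of the gene.

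Among the ligands, HBEGF and TGFA were listed in both conditions and EREG in neither. HBEGF, the heparin-binding ligand that smoke and wounding are known to release in airway cells, had 1 interval of 321 nt with identical borders in both lists (hg19, chr5:139725868-139726188, minus strand). It began 0.812 kb from the 5′ edge of the 15 kb window, the only one of these genes' intervals to begin within 1 kb of that edge. The first exon of HBEGF-201 measures 349 nt, with 46 coding bases, so the lengths differ. The score was 144.5 in the METTL3 siRNA + CSE list, at its 32.1 percentile, and 1105.0 in the CSE list, at its 84.2 percentile. In the CSE list HBEGF had the highest score of these genes, whereas in the METTL3 siRNA + CSE list 4 intervals of the set scored higher than it.

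TGFA, the ligand that epithelial cells make for themselves, had the lowest score of these genes' intervals in the METTL3 siRNA + CSE list. There it spanned 3564 nt (hg19, chr2:70674435-70677998, minus strand) with a score of 57.9, at the 4.5 percentile, close to the lowest score of any interval, 50.02. In the CSE list it spanned 3576 nt from the same 5′ border, with a score of 95.9 at the 23.1 percentile. The 3′ borders were 12 nt apart. Both lengths fall just short of the 3587 nt last exon of TGFA-201, of which 5 bases are coding, and the intervals ended 0.434 kb (METTL3 siRNA + CSE) and 0.422 kb (CSE) from the 3′ edge of the window. EREG, which encodes epiregulin, had no interval on either strand (hg19, chr4:75230000-75255000), and the nearest listed interval on its strand lay 57.2 kb away in the METTL3 siRNA + CSE list and 55.8 kb away in the CSE list. Around its window 22 numbers were unlisted in the METTL3 siRNA + CSE list, over 870.2 kb, and 14 in the CSE list, over 347.3 kb.

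All 4 feedback inhibitors had intervals in the METTL3 siRNA + CSE list, and 3 of them also in the CSE list. ERRFI1 was listed with METTL3 siRNA + CSE alone. Its interval covered 2192 nt (hg19, chr1:8072265-8074456, minus strand), ended 1.264 kb from the 3′ edge of the window, and was shorter than the 2678 nt last exon of ERRFI1-201, which holds 1184 of its coding bases. Its score of 494.0 lay at the 64.1 percentile. In its score class 15.0% of METTL3 siRNA + CSE intervals lacked an overlap in the CSE list, beside the 48.9% in the class of EGFR. The nearest CSE interval on that strand was 339342 nt away, and 6 numbers were unlisted between the flanking CSE intervals, over 525.9 kb. In the METTL3 siRNA + CSE list 3 numbers were unlisted around the ERRFI1 window, over 525.6 kb.

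The Sprouty genes had 1 interval each in both lists, with a shared 5′ border and a different 3′ border. SPRY2 had 1702 nt in the METTL3 siRNA + CSE list (hg19, chr13:80910190-80911891, minus strand) and 1619 nt in the CSE list, a difference of 83 nt. Its scores were 271.6, at the 49.2 percentile, with METTL3 siRNA + CSE and 260.8, at the 54.5 percentile, in CSE. The last exon of SPRY2-201, which holds the whole coding sequence of 945 bases, measures 1781 nt. SPRY4 had 3362 nt in the METTL3 siRNA + CSE list (hg19, chr5:141691359-141694720, minus strand) and 4729 nt in the CSE list, so the METTL3 siRNA + CSE interval was 1367 nt shorter at its 3′ side. The CSE length is that of exon 3 of SPRY4-201, in which 944 bases at the 5′ side are coding and the rest is 3′ untranslated. Its scores were 130.4 with METTL3 siRNA + CSE, at the 29.1 percentile, and 721.3 in CSE, at the 77.6 percentile.

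DUSP6, the ERK phosphatase, was the one gene with intervals of both kinds, shared and listed in 1 condition. An interval of 584 nt in the middle had identical borders in both lists (hg19, chr12:89744365-89744948, minus strand), with a score of 145.1 in METTL3 siRNA + CSE, at the 32.2 percentile, and 375.0 in CSE, at the 63.9 percentile. On its 5′ side an interval of 1004 nt (89745417 to 89746420) was listed only with METTL3 siRNA + CSE, at a score of 85.3. On its 3′ side an interval of 1470 nt (89741869 to 89743338) was listed only in CSE, at a score of 94.2. Both single-condition intervals thus scored low, at the 16.3 percentile of the METTL3 siRNA + CSE list and the 22.6 percentile of the CSE list. In their score classes 67.4% of METTL3 siRNA + CSE intervals and 28.1% of CSE intervals lacked an overlap.

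One of the gaps between the DUSP6 intervals equalled an intron of the gene. The gap between the middle and the 3′ interval was 1026 nt, the length of the last intron of DUSP6-201 and of DUSP6-204. The gap on the 5′ side was 468 nt and equalled no intron of these transcripts. Together with the 584 nt interval it makes 1052 nt, which is the sum of exon 2 (438 nt) and intron 1 (614 nt) of DUSP6-201. The 1004 nt interval is shorter than exon 1 of DUSP6-201, which measures 1632 nt with 400 coding bases, and the 1470 nt interval is shorter than exon 3, which measures 2330 nt with 305 coding bases. The interval map shows the 3 DUSP6 positions and the unequal 3′ ends in SPRY2 and SPRY4.

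**Figure D1:**
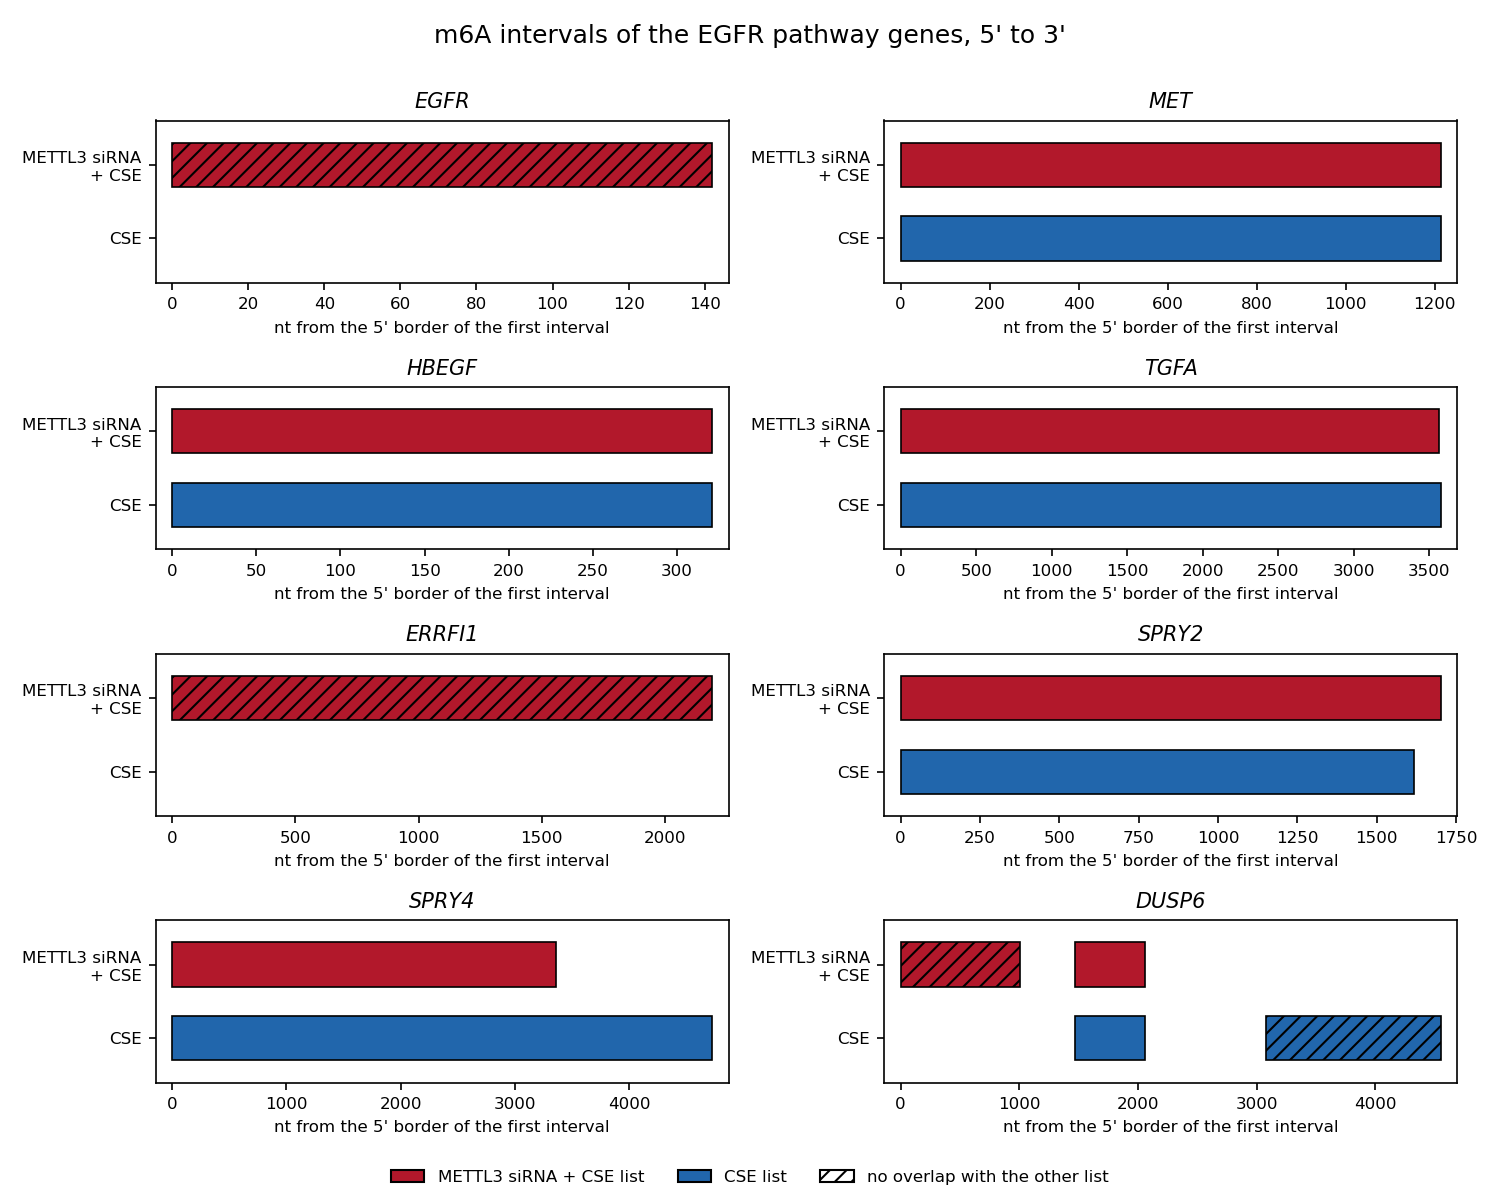
Intervals of the 8 genes with a listed interval, drawn 5′ to 3′ in nt from the 5′ border of the first interval, with the METTL3 siRNA + CSE list in the upper row (red) and the CSE list in the lower row (blue), each panel on its own scale. Hatched bars have no overlap in the other list: EGFR, ERRFI1 and the 1004 nt DUSP6 interval with METTL3 siRNA + CSE, and the 1470 nt DUSP6 interval in CSE.

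Counted over the set, the share of intervals listed in 1 condition was close to that of the whole lists. With METTL3 siRNA + CSE 3 of 9 intervals, 33.3% (exact 95% interval 7.49 to 70.1), had no overlap of at least 1 bp in the CSE list, beside 35.5% of that whole list. In CSE 1 of 7, 14.3% (0.361 to 57.9), had none in the METTL3 siRNA + CSE list, beside 19.9%. These intervals cover counting error only. Of the 8 genes with an interval, 6 were listed in both conditions, 2 with METTL3 siRNA + CSE alone and 0 in CSE alone. When all intervals on a strand were joined over gaps of up to 10 kb, 62.9% of the neighbourhoods, each of which holds an interval by definition, held intervals of both lists, 24.4% of METTL3 siRNA + CSE alone and 12.7% of CSE alone.

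Borders were identical to the base for 3 of the 6 overlapping pairs, those of MET, HBEGF and the middle DUSP6 interval, beside 82.1% of all overlapping intervals (exact 95% interval for the 3 of 6, 11.8 to 88.2%). The other 3 pairs, TGFA, SPRY2 and SPRY4, all shared the 5′ border and differed at the 3′ border. This was also the common form in the whole lists: of 1555 pairs with shifted borders, 1194 or 76.8% shared the 5′ border alone, 267 or 17.2% the 3′ border alone, and 94 shared neither. The covered length over the 10 genes was 14085 nt with METTL3 siRNA + CSE and 13513 nt in CSE.

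Intervals of these genes were mostly wide, in both conditions. The conditions are not independent here, since 6 of the 7 CSE intervals overlap a METTL3 siRNA + CSE interval. The genes were chosen and not drawn at random, and DUSP6 gives 2 intervals in each list. The exact intervals below therefore cover counting error only and are no test against the whole lists. Intervals over 300 nt made up 8 of 9 with METTL3 siRNA + CSE, 88.9% (exact 95% interval 51.8 to 99.7), beside 41.4% of that list, and 7 of 7 in CSE (59 to 100%), beside 48.9%. The median width was 1214 nt with METTL3 siRNA + CSE, where the whole list had 218 nt, and 1470 nt in CSE, where the whole list had 285 nt. The EGFR interval was the only one below the median of its list, at the 29.1 percentile. SPRY4 and TGFA lay at or above the 97.6 percentile in both lists. In the annotation, the longest exon of the principal transcript exceeded 1000 nt in 9 of the 10 genes, all but ERBB2 with 974 nt, beside 59.4% of 19606 protein-coding genes. In EREG, which had no interval, the last exon of 4025 nt makes up 87.1% of the transcript. The part of exon length in the widths was not tested.

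**Figure D2:**
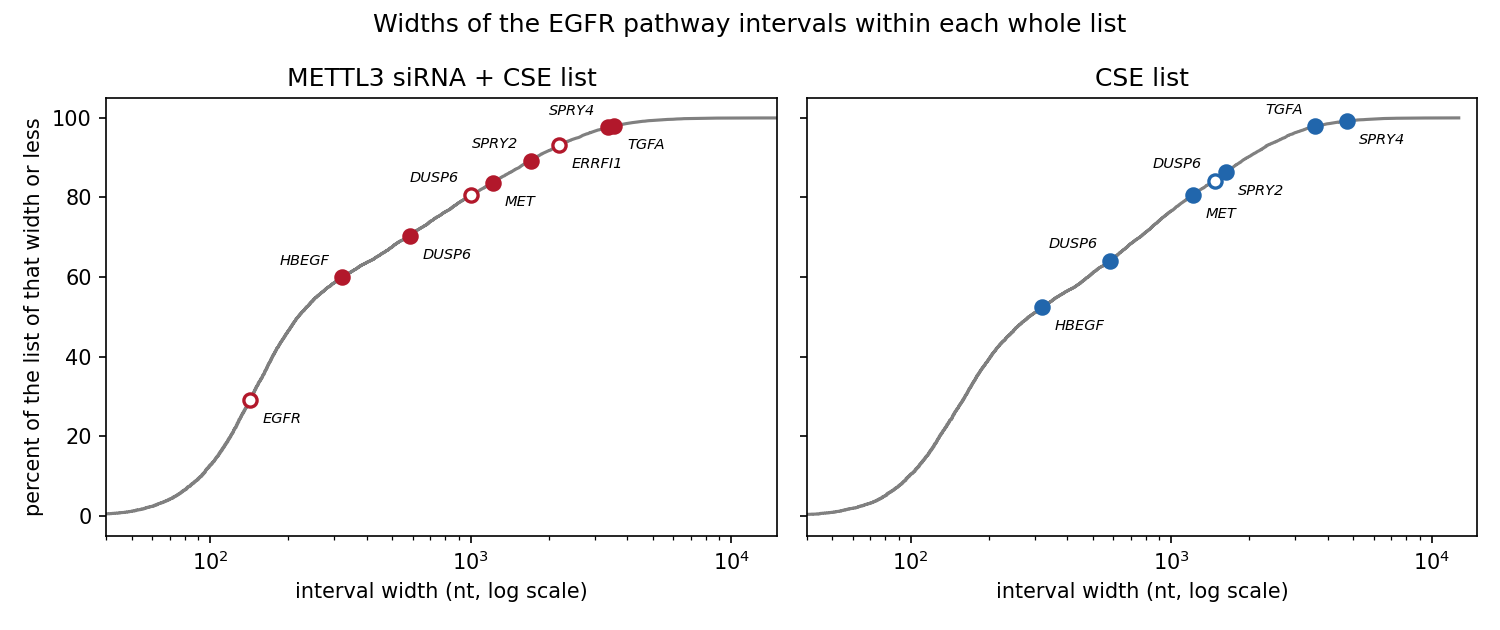
Width of each interval of these genes (circles, log scale in nt) on the cumulative width curve of its whole list (grey), METTL3 siRNA + CSE on the left and CSE on the right; open circles have no overlap in the other list. All but the 142 nt EGFR interval lie in the upper part of the curve, above 300 nt.

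By score the genes were spread over most of each list. With METTL3 siRNA + CSE the scores ran from 57.9 for TGFA to 2891.6 for MET, with a median of 144.5, beside 280.1 in the whole list. In CSE they ran from 94.2 for the 3′ DUSP6 interval to 1105.0 for HBEGF, with a median of 375.0, beside 223.8. In the METTL3 siRNA + CSE list 2 of the 9 intervals, those of MET and ERRFI1, lay above the list's median, and in the CSE list 5 of the 7, those of MET, HBEGF, SPRY2, SPRY4 and the middle DUSP6 interval. Both lists run from 50.02 to 3233.06, but whether their scores share a scale is not stated. These positions are not read as a measure of change.

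**Figure D3:**
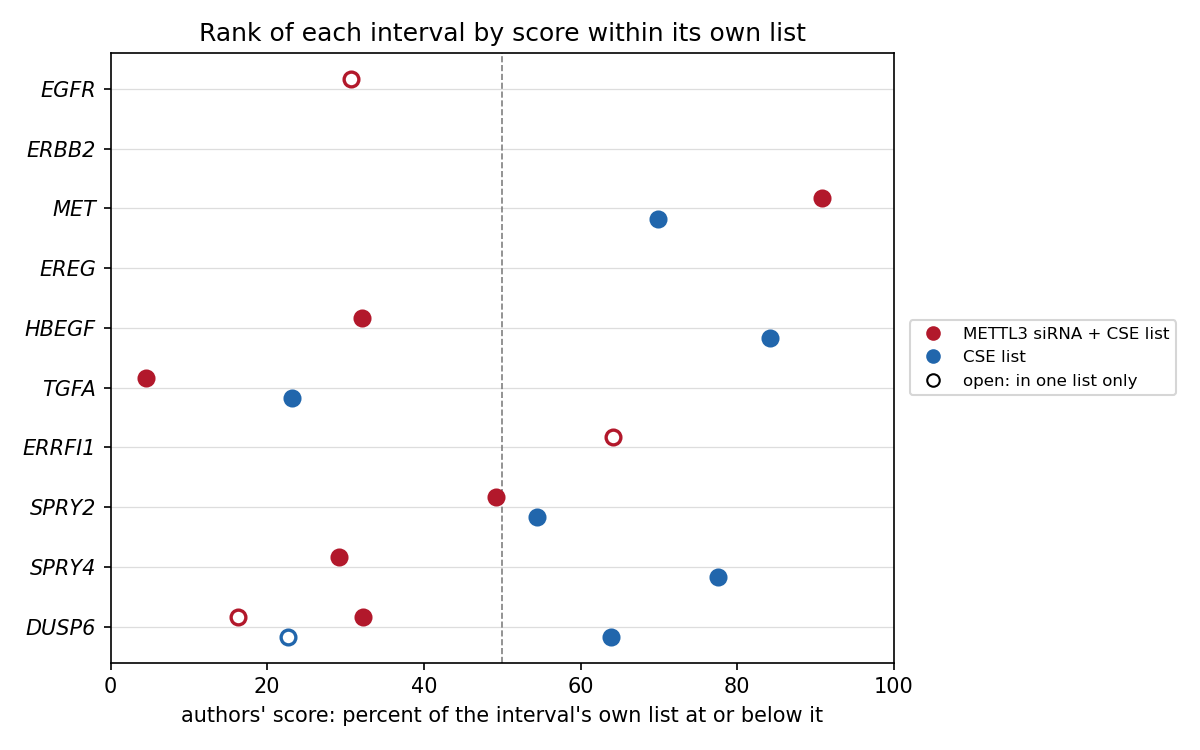
Position of each interval by the authors' score, as the percent of its own list at or below it (x axis), for the 10 genes, with METTL3 siRNA + CSE in red above CSE in blue; open circles are listed in 1 condition and the dashed line marks the middle of a list. MET is highest with METTL3 siRNA + CSE at 90.8 and HBEGF is highest in CSE at 84.2, and ERBB2 and EREG have no point.

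The density of the m6A consensus over whole transcripts overlapped between genes with and without intervals. In the principal transcripts of the 10 genes it ran from 16.6 pentamers per kb in SPRY2 to 21.8 in HBEGF, beside a median of 18.9 over protein-coding genes, with 20.2 in ERBB2 and 19.5 in EREG. GGACT alone varied more, from 0 occurrences in ERRFI1-201 and SPRY4-202 to 12 in EGFR-201. SPRY4-202 measures 2379 nt, less than either listed SPRY4 interval, and exon 3 of SPRY4-201 held GGACT 4 times. Per kb it was 1.85 in SPRY2, 1.68 in HBEGF and 1.66 in MET, beside a median of 0.93, and 0.66 in ERBB2 and 0.65 in EREG. TGFA, with intervals in both lists, had 0.70, and ERRFI1, with its 2192 nt interval, had none in its principal transcript. The part of these motifs in the listing was not tested.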

How the data were processed

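m6A was measured by MeRIP-seq in 4 samples, an IP and an input of each of 2 conditions. The submitters' processing notes name HISAT2 2.0.4 and the build hg19. Each interval's name starts with MACS. Both lists are labelled as mRNA m6A. The caller's version and settings, the treatment of replicates and how intervals were chosen beyond that label are not stated in the sources used here. Each list, deposited by the authors, has 6 columns, of which the fifth is the authors' score per interval, from 50.02 to 3233.06 in both lists, with no stated scale.

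Computed here (Python 3.11.15, SciPy 1.17.1): intervals of the gene windows, overlap of at least 1 bp on the same strand, percentiles within a list, exact Clopper-Pearson 95% intervals, and lengths and motifs from GENCODE 29. The overlap count was tested on simulated data. Percentiles are the percent of a list at or below a value. The principal transcript is the longest with GENCODE's APPRIS principal tag. Coordinates count from 1. The genes, windows and lists were chosen with earlier results of these data known. All 10 genes are named, with each interval listed in 1 condition and the highest-scoring one of each gene. The sorting of shifted pairs by the border they shared, and the comparison of gaps and motifs, were added after the intervals were seen. Other pathway genes were not analysed here, since no hg19 annotation was used. Read depths were not used, so the precision behind a score is unknown. Alternatives were other definitions of overlap, minimum scores and intervals wholly inside a window.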

Additional observations from a re-analysis of the deposited data

How the results depend on the processing

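With 1 list per condition no library could be left out. No paired analysis was possible because each condition has 1 list and the labels give no replicate numbers. Of 48 values under alternatives, 37 equalled the reported value or stayed within 1.5 times of it and 11 moved. Some of the 37 could not move, so their number is no measure of stability. Interval numbers and covered lengths do not use the definition of overlap. The count of identical borders does not depend on how much overlap is required. Counting only identical borders as overlap gave 6 intervals in 1 list only with METTL3 siRNA + CSE and 4 in CSE. With the upper 50% of either list, ranked by score, 2 intervals over 3406 nt stayed with METTL3 siRNA + CSE, of which 1 had no partner. In CSE 5 stayed, over 8467 nt, of which 4 had none, and 1 pair kept identical borders. At scores of at least 100, 0 CSE intervals lacked a partner and 8467 nt were covered in CSE; the same minimum need not be equally strict in both lists. Reciprocal overlap of 50%, overlap on either strand and intervals wholly inside the windows changed no value. These moves follow from the settings themselves, which keep fewer intervals or count fewer as shared.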
